A study of Arabidopsis thaliana with 12 samples.

Results

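The genes described here are the 6 subunits of the MCM replicative helicase and the 2 genes for the sliding clamp PCNA in Arabidopsis thaliana. They were taken by gene ID as the known genes of these complexes, by a rule that used no measured value. Earlier results of these data were known when they were chosen. They are MCM2 (AT1G44900), MCM3 (AT5G46280), MCM4 (AT2G16440), MCM5 (AT2G07690), MCM6 (AT5G44635), MCM7 (AT4G02060), PCNA1 (AT1G07370) and PCNA2 (AT2G29570), 8 of the 33557 genes measured. The RefSeq annotation gives 7 of the 8 IDs the same names and AT4G02060 the name PRL, with MCM7 as a synonym, and all 8 passed the filter on low values described below.

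The products of MCM2 to MCM7 form a ring that is loaded onto replication origins by the origin recognition complex, CDC6 and CDT1, and that unwinds DNA once CDC45 and the GINS proteins have joined it. PCNA is a ring that the clamp loader RFC places around DNA, where it holds the replicative polymerases, and it also serves DNA repair. In roots these genes are known for their expression in the dividing cells of the meristem and in cells that copy their genome without dividing, and E2F transcription factors are known regulators of many of them.

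Messenger RNA was sequenced from roots of Col-0 seedlings exposed to arsenate, As(V), a toxic analogue of phosphate. All seedlings, the controls included, were raised for 7 days with 1 mM phosphate and then for 2 days without it, so every group was deprived of phosphate when treatment began. Roots were kept for 1.5, 6 or 24 h in phosphate-free liquid medium that held 30 µM As(V), or none in the mock groups. The 6 groups have 2 libraries each, and each library came from 60 seedlings. The labels do not say whether the 2 were separate cultures, so p-values measure only the spread between these samples. Whole roots were used, so fewer cells that express a gene and less RNA per cell cannot be told apart.

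Levels are the deposited FPKM values, fragments per kilobase of transcript relative to library size, a scale corrected for gene length. Steps in these values put the reads in genes at 12.6 to 15.6 M per library, and the 8 genes rested on 28 to 753 estimated reads per library. Changes are differences of log2(FPKM + 1) with their standard error, a scale that understates changes of low genes. They were tested with limma in 1 fit over 12 libraries and adjusted by Benjamini-Hochberg over 19790 genes. A gene was called at an adjusted p under 0.05. Where libraries of 2 groups are said not to overlap, the share of all genes that do so was not computed. The size to which a library was scaled, divided by its reads in genes, was 0.640 and 0.656 in the As(V) libraries at 1.5 h. It was 0.445 and 0.461 in those at 6 h, and it lay between 0.997 and 1.13 in the other 8 libraries. Each direction was therefore also computed with libraries scaled to their total reads, called library totals here, and by median of ratios. The median change of all genes at 1.5, 6 and 24 h was -0.09, -0.12 and -0.06 as deposited, -0.62, -1.08 and 0.03 with library totals, and -0.03, -0.04 and 0.03 by median of ratios.

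Sequences before the gene starts are shown because the 8 genes fell into groups there that the choice of genes did not use. Those of MCM3 and MCM4 are not printed, and their motif matches are given below. The 250 bases before the start were read from the RefSeq TAIR10.1 assembly, 5′ to 3′ on the gene's strand. Capitals mark letters of an E2F motif (TTTCCCGC, TTTGGCGC, TTTCGCGC or TTTGCCGC) and of the site II motif (TGGGCC or TGGGCT), searched on both strands. No E2F match overlapped a site II match. The stretches are chr1:16969964-16970213 on the plus strand for MCM2, chr2:3527501-3527750 on the minus strand for MCM5, chr5:18010668-18010917 on the minus strand for MCM6 and chr4:900386-900635 on the plus strand for MCM7. For PCNA1 it is chr1:2262787-2263036 on the plus strand, and for PCNA2 chr2:12651754-12652003 on the minus strand.
MCM2: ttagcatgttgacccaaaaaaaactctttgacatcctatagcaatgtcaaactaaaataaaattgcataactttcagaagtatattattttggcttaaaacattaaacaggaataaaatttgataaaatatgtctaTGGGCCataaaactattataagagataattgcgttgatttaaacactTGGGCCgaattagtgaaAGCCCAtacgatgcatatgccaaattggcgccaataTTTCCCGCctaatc
MCM5: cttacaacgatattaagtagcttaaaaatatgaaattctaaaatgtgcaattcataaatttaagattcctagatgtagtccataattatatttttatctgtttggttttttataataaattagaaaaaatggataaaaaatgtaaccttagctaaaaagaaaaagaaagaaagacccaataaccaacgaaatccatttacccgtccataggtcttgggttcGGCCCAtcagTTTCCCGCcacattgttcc
MCM6: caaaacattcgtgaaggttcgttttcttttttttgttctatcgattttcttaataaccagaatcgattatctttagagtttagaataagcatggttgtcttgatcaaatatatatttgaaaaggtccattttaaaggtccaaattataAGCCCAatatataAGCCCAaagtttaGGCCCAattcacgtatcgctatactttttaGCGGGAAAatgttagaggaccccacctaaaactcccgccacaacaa
MCM7: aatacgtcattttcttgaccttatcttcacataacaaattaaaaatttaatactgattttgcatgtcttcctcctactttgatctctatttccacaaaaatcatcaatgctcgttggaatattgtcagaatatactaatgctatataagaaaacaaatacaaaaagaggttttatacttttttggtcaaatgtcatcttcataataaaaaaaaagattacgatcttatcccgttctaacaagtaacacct
PCNA1: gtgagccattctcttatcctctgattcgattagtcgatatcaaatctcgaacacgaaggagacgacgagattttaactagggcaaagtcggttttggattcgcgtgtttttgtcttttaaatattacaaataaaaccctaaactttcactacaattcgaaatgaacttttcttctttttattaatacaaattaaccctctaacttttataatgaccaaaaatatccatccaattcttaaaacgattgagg
PCNA2: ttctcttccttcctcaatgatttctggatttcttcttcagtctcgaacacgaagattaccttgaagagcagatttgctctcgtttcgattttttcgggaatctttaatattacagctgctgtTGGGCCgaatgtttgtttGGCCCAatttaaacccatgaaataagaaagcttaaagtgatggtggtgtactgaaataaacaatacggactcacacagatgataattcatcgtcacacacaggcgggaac

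E2F letters lay before 5 of the 8 genes, MCM2, MCM3, MCM4, MCM5 and MCM6, against 387 of 27443 protein-coding genes (1.41%). In MCM2, MCM5 and MCM6 the letters were TTTCCCGC and ended 7, 12 and 39 bases before the start, and in MCM3 and MCM4 they were TTTGGCGC, 163 and 28 bases before it. Site II letters, known from promoters of plant cell cycle genes, lay before the same 5 genes and PCNA2, 6 of 8 against 19.2% of all genes. A telo box (AAACCCTA, both strands) lay before PCNA1, 1 of 8 against 4.49%, and MCM7 had none of the 3 motifs in this window. The lists of other genes given below held such letters too. E2F letters lay before 4 of 11 origin licensing, 3 of 12 polymerase group and 2 of 10 helicase partner genes. They lay before 2 of 14 genes of E2F, RBR1 and cyclin control and 2 of 13 histone genes. No clamp loader, nucleotide supply or mitosis gene had them. Site II letters ranged among these lists from 0 of 5 clamp loader genes to 7 of 11 origin licensing genes. A match is an exact string of letters in a window, and near matches were not counted. Binding at these letters was not measured.

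In mock roots the PCNA genes stood above the MCM genes at each time. PCNA2 averaged 23.8 ± 5.63, 32.6 ± 0.840 and 24.3 ± 2.06 FPKM (SD, n = 2) at 1.5, 6 and 24 h, and PCNA1 20.1 ± 0.570, 27.6 ± 1.07 and 24.1 ± 6.22. Of the MCM genes MCM7 had the highest mock mean at each time, 9.66 to 14.0 FPKM, and MCM6 the lowest, 4.66 to 7.40. All 8 genes were higher in replicate 1 than in replicate 2 of the mock group at 24 h, with summed MCM levels of 62.0 and 48.9 FPKM, so results at 24 h are also given without a mock library where it decides a call.

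**Figure D1:**
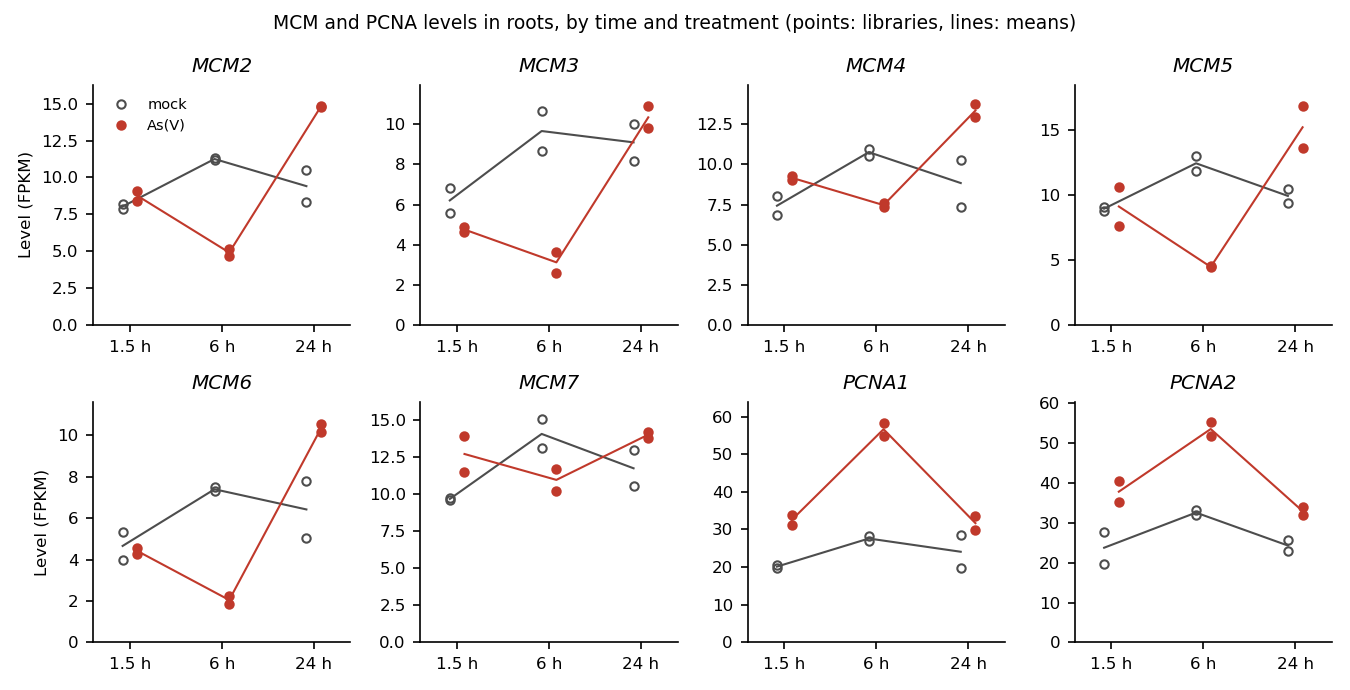
Level of each of the 8 genes in FPKM (y axes from 0, deposited scaling) at 1.5, 6 and 24 h, with 1 point per library, open for mock and filled for As(V), and lines through the means of 2 libraries. At 6 h the As(V) points lie below mock in all 6 MCM panels and above mock in both PCNA panels, and at 24 h they lie above mock in 7 panels and overlap in that of MCM3; with library totals the PCNA difference at 6 h has the opposite sign.

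After 1.5 h of As(V) both PCNA genes and 1 of the 6 MCM genes were higher on the deposited scale. PCNA1 was at 31.2 and 33.8 FPKM with As(V) and at 20.5 and 19.7 in mock, a change of 0.66 ± 0.15 (SE, adjusted p = 0.0029). PCNA2 was at 35.1 and 40.5 against 27.8 and 19.8 FPKM, a change of 0.67 ± 0.14 (adjusted p = 0.0013) that was 0.43 (adjusted p = 0.0082) without mock replicate 2. Neither PCNA gene's As(V) libraries overlapped mock, and with library totals both changes were 0.06 and not called (adjusted p = 0.76 and 0.72).

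Of the helicase subunits MCM7 alone passed the test at 1.5 h, at 13.9 and 11.5 FPKM against 9.71 and 9.61. Its change of 0.36 ± 0.12 (adjusted p = 0.027) was -0.22 with library totals, and it was lost without either mock library (0.36 and 0.35, adjusted p = 0.075 and 0.085) or without As(V) replicate 1 (0.22, adjusted p = 0.23), and with no filter on low values (adjusted p = 0.055). The other 5 subunits changed by between -0.32 ± 0.18 (MCM3) and 0.27 ± 0.14 (MCM4), the latter -0.29 with library totals, and were not called. So 3 of 8 genes were called higher, where 30.1% of all genes tested were, and 0 were called lower, where 33.8% were. With library totals 0 were higher and 4 lower, MCM2, MCM3, MCM5 and MCM6, at -0.45, -0.84, -0.56 and -0.56. Of all 19790 genes tested 3073 were higher and 12387 lower on that scaling.

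After 6 h of As(V) the helicase and the clamp genes had moved apart: all 6 MCM genes were lower than mock and both PCNA genes higher. The MCM genes were lower under all 3 scalings, while the PCNA changes had the opposite sign with library totals. At this time 37.6% of all genes tested were called lower and 35.8% higher, and with library totals 13840 of 19790 were lower and 3282 higher. The share of all genes whose As(V) and mock libraries did not overlap was not computed.

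MCM6, which in yeast and mammals forms the core of the helicase together with MCM4 and MCM7, was at 2.24 and 1.86 FPKM with As(V) against 7.29 and 7.50 in mock. These are 32 and 28 estimated reads against 251 and 283, and the mock mean was 3.61 times the As(V) mean. On the log2 scale MCM6 fell by 1.47 ± 0.27 (adjusted p = 0.00053). MCM3 was at 3.63 and 2.62 against 10.6 and 8.67 FPKM and fell by 1.37 ± 0.21 (adjusted p = 0.00011).

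MCM5, which in yeast makes up with MCM2 the gate through which DNA enters the ring, was at 4.44 and 4.51 against 13.0 and 11.8 FPKM and fell by 1.29 ± 0.19 (adjusted p = 7.8e-05). Its partner MCM2 was at 5.17 and 4.67 against 11.2 and 11.3 FPKM and fell by 1.05 ± 0.13 (adjusted p = 1.7e-05). In these 4 genes both As(V) libraries lay below both mock libraries, and each call held when any 1 library of the pair of groups was left out.

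MCM4 and MCM7 moved less. MCM4 was at 7.32 and 7.61 against 10.99 and 10.5 FPKM and fell by 0.47 ± 0.15 (adjusted p = 0.014), a call lost without As(V) replicate 1 (-0.45, adjusted p = 0.068) or 2 (-0.50, adjusted p = 0.053). MCM7, named PROLIFERA in Arabidopsis, was at 11.7 and 10.2 against 15.02 and 13.1 FPKM and fell by 0.33 ± 0.13 (adjusted p = 0.037). The MCM7 call was lost by median of ratios (-0.24, adjusted p = 0.11), without mock replicate 1 (-0.24, adjusted p = 0.17) and without As(V) replicate 1 (-0.42, adjusted p = 0.051) or 2 (-0.24, adjusted p = 0.22), and with no filter on low values (adjusted p = 0.068). With library totals the 6 changes ran from -1.43 in MCM7 to -2.29 in MCM6, beside a median of -1.08 over all genes.

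With 6 h of As(V) PCNA1 was at 54.9 and 58.4 FPKM, while mock was at 26.8 and 28.4, and the As(V) mean was 2.05 times that of mock. Its change was 1.01 ± 0.13 (adjusted p = 3.6e-05), and with library totals it was -0.17 (adjusted p = 0.28). PCNA2 was at 55.2 and 51.9 against 33.2 and 32.0 FPKM, a change of 0.70 ± 0.12 (adjusted p = 0.00036) that was -0.48 with library totals (adjusted p = 0.0038). The As(V) and mock libraries of both PCNA genes did not overlap on the deposited scale, and with library totals both genes stood above the median change of all genes.

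**Figure D2:**
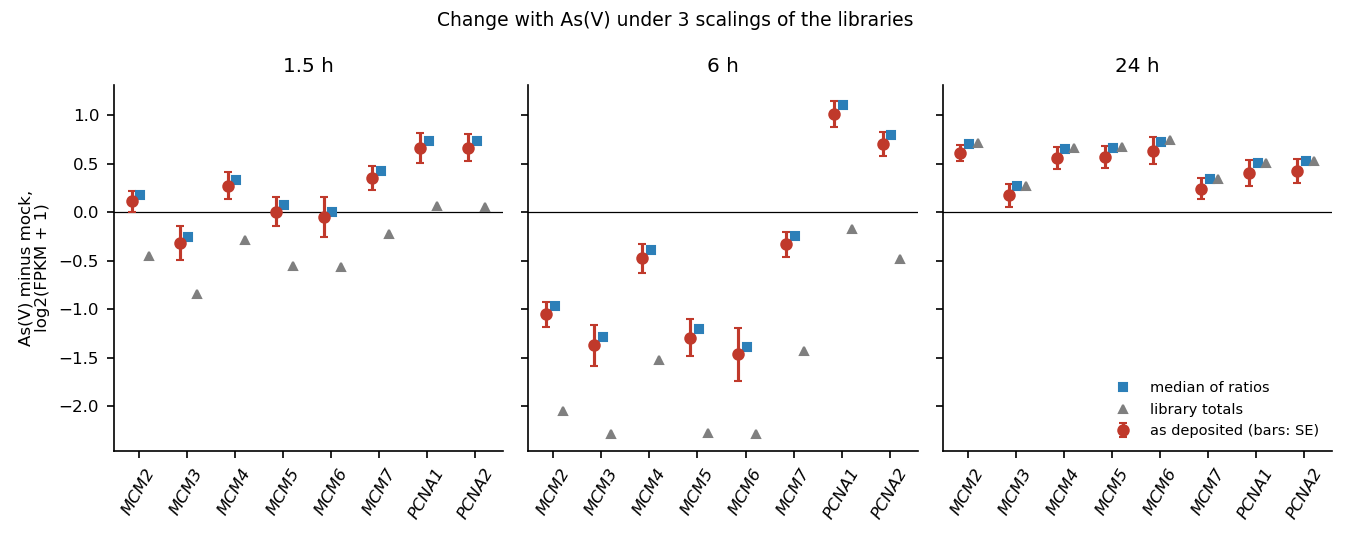
Difference of log2(FPKM + 1) between As(V) and mock (y axis) for the 8 genes at 1.5, 6 and 24 h, as deposited with its standard error (circles), by median of ratios (squares) and with library totals (triangles). At 6 h all 3 symbols lie below 0 in the 6 MCM genes, while PCNA1 and PCNA2 lie above 0 as deposited (1.01 and 0.70) and below 0 with library totals (-0.17 and -0.48).

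After 24 h of As(V) 6 of the 8 genes were higher than mock, where 29.4% of all genes tested were called higher, and 0 were lower, where 36.4% were. No direction among the 8 changed with the scaling at this time. MCM2 was at 14.9 and 14.8 FPKM against 10.5 and 8.34 and rose by 0.61 ± 0.08 (adjusted p = 7.1e-05). MCM6, the lowest of the 6 h As(V) levels, was at 10.2 and 10.5 against 7.78 and 5.07 FPKM and rose by 0.63 ± 0.14 (adjusted p = 0.0020).

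MCM5 was at 16.8 and 13.6 against 10.4 and 9.41 FPKM and rose by 0.57 ± 0.12 (adjusted p = 0.0013). MCM4 was at 12.9 and 13.8 against 10.3 and 7.38 FPKM and rose by 0.56 ± 0.11 (adjusted p = 0.0012). Each of these 4 genes had its highest mean of the 6 groups here, and its As(V) libraries lay above both mock libraries. How many of all genes did the same was not counted. Without mock replicate 2 the changes of MCM4 and MCM6 were 0.34 and 0.37, still called.

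MCM3 overlapped mock at 24 h, at 10.9 and 9.79 against 10.02 and 8.16 FPKM (change 0.17 ± 0.12, adjusted p = 0.22). MCM7 was at 14.2 and 13.8 against 12.9 and 10.5 FPKM, and its change of 0.24 ± 0.11 missed the threshold (adjusted p = 0.062). With library totals and by median of ratios MCM7 was called, at 0.34 in both, as it was without mock replicate 1 (0.38, adjusted p = 0.015).

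On the deposited scale the changes of the clamp genes were smaller at 24 h than at 6 h. By limma's test of the difference this was called in PCNA1 (-0.61, adjusted p = 0.015) but not in PCNA2 (-0.28, adjusted p = 0.19). PCNA1 was at 33.6 and 29.8 against 28.5 and 19.7 FPKM, a change of 0.40 ± 0.13 (adjusted p = 0.019), and PCNA2 at 32.0 and 33.9 against 25.8 and 22.9, a change of 0.42 ± 0.12 (adjusted p = 0.010). Without mock replicate 2, the library with the lower values, the changes were 0.15 (adjusted p = 0.20) and 0.34 (adjusted p = 0.073). The PCNA1 call was also lost without As(V) replicate 1 (0.31, adjusted p = 0.13), and that of PCNA2 without As(V) replicate 2 (0.38, adjusted p = 0.052).

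Ratios between genes of the same library do not depend on its scaling. The mean of the 2 PCNA genes was 3.28 and 2.59 times the mean of the 6 MCM genes in mock at 1.5 h, 2.64 and 2.88 times at 6 h and 2.63 and 2.61 times at 24 h. With As(V) the ratio was 4.13 and 4.49 at 1.5 h, 9.58 and 10.5 at 6 h, and 2.466 and 2.504 at 24 h. It was thus above every mock library in the 4 As(V) libraries at 1.5 and 6 h and below every mock library in the 2 at 24 h. An exact permutation test of 2 against 2 libraries cannot give a two-sided p below 0.333, so no p is given for these ratios. The PCNA1 level divided by the PCNA2 level stayed between 0.740 and 1.12 in the 12 libraries.

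The make-up of the helicase transcripts was uneven at 6 h of As(V). MCM7 held 33.8% and 32.5% of the summed MCM level there, against 17.8% to 28.9% in the other 10 libraries, and MCM6 held 6.49% and 5.90%, against 8.62% to 13.8%. The highest MCM gene was 5.212 and 5.501 times the lowest in these 2 libraries, against 1.51 to 3.06 times in the others. The lowest value of this ratio, 1.51, and the next, 1.66, were those of As(V) at 24 h.

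**Figure D3:**
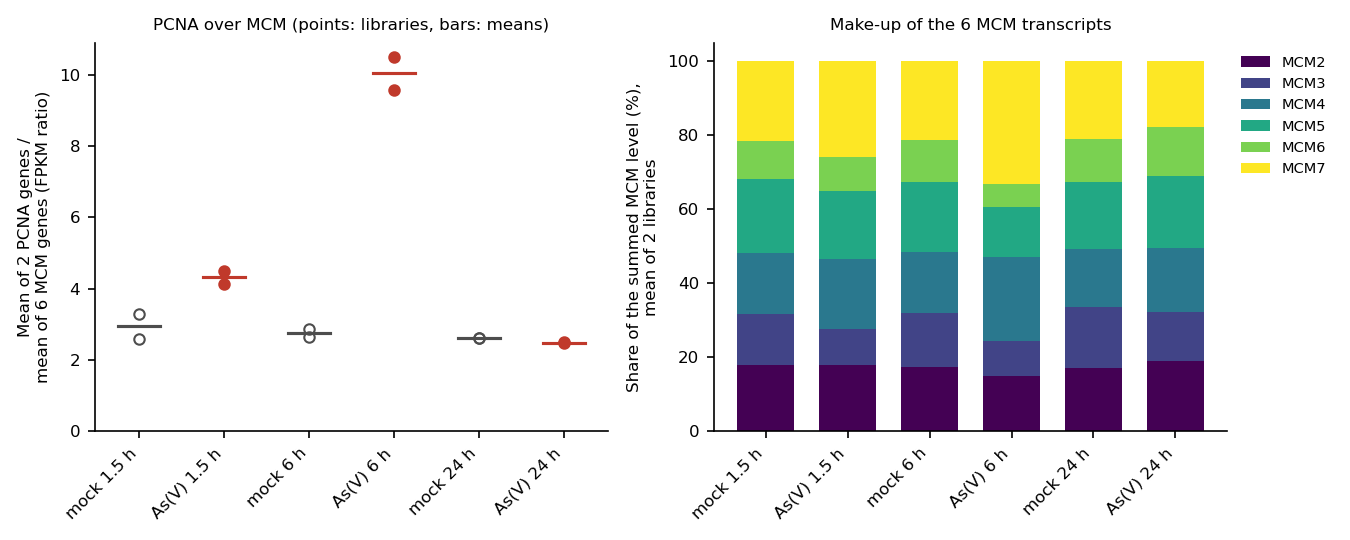
Left, mean FPKM of PCNA1 and PCNA2 divided by the mean FPKM of MCM2 to MCM7 within each library (points; bars are means of 2 libraries), by group. Right, mean share of each MCM gene in the summed MCM level (%), by group. The ratio is 9.58 and 10.5 in the As(V) libraries at 6 h and 2.47 to 4.49 in the other 10, and MCM7 holds its largest mean share, 33.2%, at 6 h of As(V).

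Without As(V) the 8 genes also moved with time. From 1.5 to 6 h of mock 7 of 8 were called higher, by 0.43 to 0.58, where 9.42% of all genes tested were, 0 were called lower, where 11.7% were, and PCNA1 changed by 0.44 ± 0.14 (adjusted p = 0.051). These calls were unstable: leaving out 1 library left 1 to 3 of them, and dropping the precision weights left 4. From 6 to 24 h of mock 1 of 8 was called lower, PCNA2 at -0.41 ± 0.12 (adjusted p = 0.033), where 10.2% were, and 0 higher, where 13.6% were. From 1.5 to 24 h 1 was called higher, MCM3 at 0.49 ± 0.13 (adjusted p = 0.022), where 12.5% were, and 0 lower, where 11.7% were. The PCNA2 call was lost without either library at 6 h or replicate 2 at 24 h (-0.33 to -0.43, adjusted p = 0.11 to 0.18), and that of MCM3 without replicate 1 at 1.5 or 24 h (0.36 and 0.35, adjusted p = 0.17 and 0.14).

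Under As(V) the MCM and PCNA genes that were called moved in opposite directions on the deposited scale. From 1.5 to 6 h MCM2, MCM5 and MCM6 fell by 0.72 ± 0.14, 0.87 ± 0.20 and 0.83 ± 0.30, 3 of 8 genes where 19.9% were lower, while PCNA1 and PCNA2 changed by 0.78 ± 0.15 and 0.49 ± 0.13, 2 of 8 where 29% were higher. The MCM6 call was lost without any 1 of the 4 libraries (-0.74 to -0.92, adjusted p = 0.071 to 0.16), and that of PCNA2 without replicate 1 at 1.5 or 6 h (0.39 and 0.45, adjusted p = 0.078 and 0.055). With library totals 6 of 8 were lower, the MCM genes, where 8311 of 19790 genes were. The PCNA changes were then 0.27 and -0.01, neither called. From 6 to 24 h of As(V) all 6 MCM genes rose, by 0.33 ± 0.13 (MCM7) to 1.90 ± 0.27 (MCM6), where 29.8% were higher. This held under all 3 scalings, and with library totals 13152 of 19790 genes were higher. The MCM7 call was lost without any 1 of the 4 libraries (0.24 to 0.42, adjusted p = 0.054 to 0.23). PCNA1 and PCNA2 changed by -0.82 ± 0.13 and -0.69 ± 0.12 over the same interval, where 38.4% were lower, but by 0.43 and 0.56 with library totals. From 1.5 to 24 h of As(V) MCM2 to MCM6 were higher, by 0.49 to 1.07, 5 of 8 where 31% were, and 0 were lower, where 35.5% were. With library totals all 8 were higher, where 11632 of 19790 genes were.

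Ordered by mean level on the deposited scale, As(V) at 6 h was the lowest of the 6 groups for MCM2, MCM3, MCM5 and MCM6, and did not overlap the next group in any of these. For MCM4 and MCM7 the lowest group was mock at 1.5 h, which overlapped As(V) at 6 h for MCM4 but not for MCM7. For both PCNA genes As(V) at 6 h was the highest group and did not overlap As(V) at 1.5 h, the next. The upper end of the MCM order was As(V) at 24 h in 5 genes and mock at 6 h in MCM7, where these 2 groups overlapped. How many of all genes had such orders, or groups that did not overlap, was not computed.

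The effect of As(V) itself differed between times in all 6 MCM genes. It was lower at 6 h than at 1.5 h in 6 of 8 genes, where 17.7% of all genes tested were, and higher in 0, where 26.3% were. It was higher at 24 h than at 6 h in the same 6, where 26.8% were. With library totals these counts were 7, PCNA2 included, and 8, where 7844 and 12449 of 19790 genes were called in the same directions. PCNA1 had a lower effect at 24 h than at 6 h, 1 of 8 where 35.4% were, but a higher one with library totals. Between 1.5 and 24 h the effect was higher at 24 h in MCM2, MCM5 and MCM6, 3 of 8 where 27.9% were, and lower in 0, where 32.3% were. The MCM5 call was lost without replicate 1 of As(V) or replicate 2 of mock at either time (0.34 to 0.54, adjusted p = 0.064 to 0.14). That of MCM6 was lost without any 1 library other than mock replicate 2 at 1.5 h and mock replicate 1 at 24 h (0.42 to 0.72, adjusted p = 0.055 to 0.14). Without As(V) replicate 2 at 6 h the calls at 24 h against 6 h were lost for MCM7 (0.48, adjusted p = 0.059) and PCNA1 (-0.56, adjusted p = 0.051).

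Other replication genes are given from lists of the pathway's known members. Of all genes tested 30.1%, 35.8% and 29.4% were called higher at 1.5, 6 and 24 h and 33.8%, 37.6% and 36.4% lower. Each list's counts on the deposited scale stand against these shares. With library totals 3073, 3282 and 6834 of the 19790 genes were higher and 12387, 13840 and 6444 lower. The lists' counts with library totals stand against these. Among origin licensing genes 5 of the 10 tested were lower at 6 h and 0 higher (median -0.71), and at 24 h 2 were lower and 2 higher (median 0.22). With library totals all 10 were lower at 6 h, and 1 was lower and 3 higher at 24 h. CDT1A, which loads the MCM ring, fell by 1.02 ± 0.14 at 6 h and by 0.25 ± 0.09 at 24 h, the latter not called with the other scalings (-0.16 in both). Of 10 helicase partners and relatives 5 were lower at 6 h and 5 higher at 24 h, with 0 called the other way (medians -0.76 and 0.36). With library totals all 10 were lower at 6 h and 8 higher at 24 h. MCM10, which helps to start the helicase, fell by 1.88 ± 0.25 at 6 h and rose by 0.35 ± 0.12 at 24 h. ETG1, a protein that binds the MCM complex in Arabidopsis, fell by 0.91 ± 0.17 and rose by 0.54 ± 0.10.

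Of the 5 clamp loader genes 2 were lower at 6 h, 0 higher and 3 not called (median -0.17), and with library totals all 5 were lower (median -1.24). Their difference from the PCNA genes was not tested. RFC1, the large subunit, fell by 0.83 ± 0.10, and RFC2, RFC3 and AT1G21690 (EMB1968) were at 0.11, -0.17 and 0.17, not called. At 24 h 4 of the 5 were higher and 0 lower (median 0.59), RFC2 by 1.20 ± 0.14.

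Of 11 tested genes for polymerase subunits, ligase and flap nuclease 7 were lower and 2 higher at 6 h (median -0.37), and 9 higher and 0 lower at 24 h (median 0.56). With library totals 10 were lower and 1 higher at 6 h (median -1.39), and 10 higher at 24 h. EMB2813 (AT1G67320), a primase subunit, fell by 1.097 ± 0.18 at 6 h and rose by 0.73 ± 0.10 at 24 h. DPB2, a subunit of polymerase epsilon, was higher at 1.5, 6 and 24 h, by 0.73 ± 0.15, 1.84 ± 0.12 and 0.75 ± 0.13, and with library totals by 0.24 (not called), 0.77 and 0.87. Nucleotide supply genes split at 6 h, with 4 of 5 lower and 1 higher, also with library totals. TSO2, a small subunit of ribonucleotide reductase, fell by 2.11 ± 0.21, while RNR2A, another small subunit, rose by 1.56 ± 0.11 as deposited and by 0.42 with library totals.

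Among 14 genes of E2F, RBR1 and D-type cyclin control, 7 were lower and 3 higher at 6 h (median -0.50), and 3 lower and 5 higher at 24 h (median 0.18). With library totals 13 were lower and 1 higher at 6 h, and 2 lower and 6 higher at 24 h. E2FB (AT5G22220, an E2F activator) rose by 1.69 ± 0.15 at 6 h, or by 0.63 with library totals, and by 0.76 ± 0.16 at 24 h. DPA, a dimer partner of E2F proteins, fell by 1.31 ± 0.22 at 6 h. CYCD3;1, a D-type cyclin, fell by 0.94 ± 0.17 at 6 h and by 2.14 ± 0.14 at 24 h.

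At 24 h of As(V) histone and mitosis genes were mostly lower, while no MCM gene was called lower. On the deposited scale 10 of 13 histone and 5 of 8 mitosis genes were already lower at 1.5 h, where 33.8% of all genes were. No MCM gene was called lower at that time. With library totals 11 and 7 were lower at 1.5 h, as were 4 MCM genes and 12387 of all 19790 genes. Of 13 S-phase histone genes 11 were lower and 0 higher at 24 h (median -0.70), after 11 lower and 2 higher at 6 h (median -2.14), the 2 not higher with library totals. All 8 mitosis genes were lower at 24 h (median -1.17), and 7 of 8 at 6 h (median -1.58), under all 3 scalings at 24 h. The mitotic cyclin CYCB1;4 fell by 2.45 ± 0.25 at 6 h and 1.304 ± 0.12 at 24 h, and SYP111 (KNOLLE), a syntaxin of cell plate formation, by 1.63 ± 0.26 and 1.63 ± 0.19. Up to 30.8% of the 50-base windows of some histone H4 genes recur elsewhere in the genome, so reads may be shared among them, while no window of the 8 replication genes recurs. Within libraries the summed mitosis level over the summed MCM level was 2.13 to 2.78 in mock, 1.35 to 1.77 at 1.5 and 6 h of As(V) and 0.779 and 0.742 at 24 h. The summed histone level was 19.3 to 23.0 times the summed MCM level in mock and 9.31 and 8.86 times at 24 h of As(V).

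**Figure D4:**
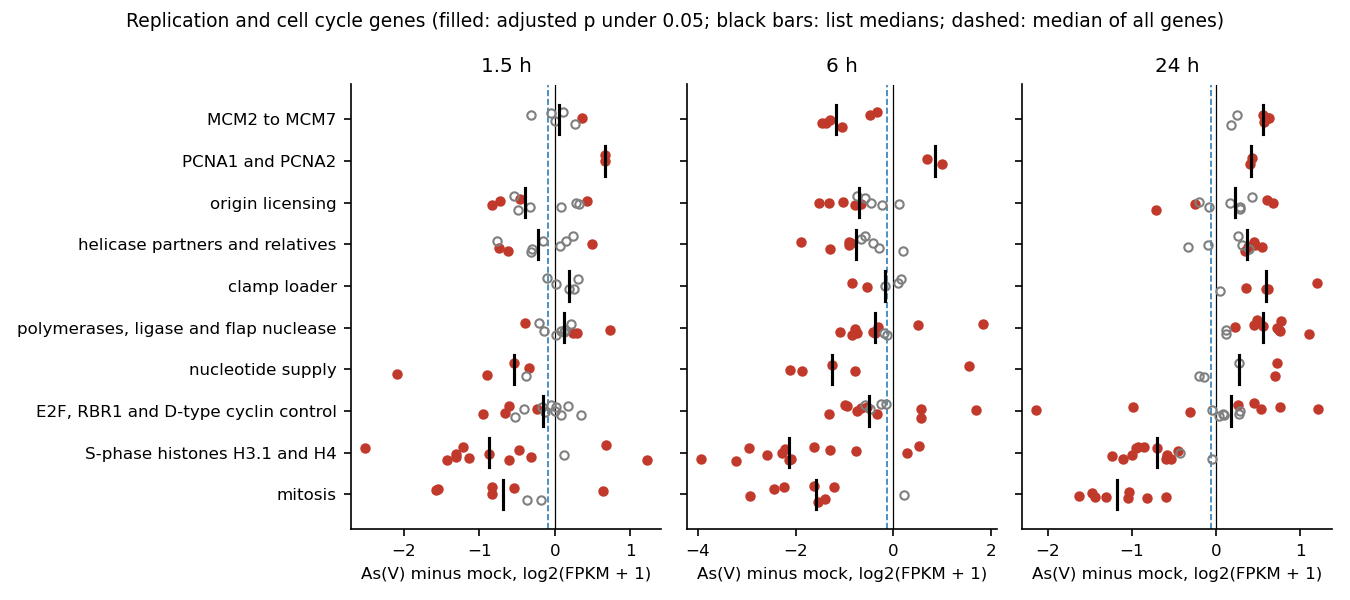
Difference of log2(FPKM + 1) between As(V) and mock on the deposited scale (x axis) for the genes of 10 groups (rows) at 1.5, 6 and 24 h, with 1 point per gene, filled where limma's adjusted p is under 0.05, black bars at group medians and a dashed line at the median of all genes. At 24 h the MCM, PCNA, clamp loader and polymerase rows lie mostly above 0, and the histone and mitosis rows below 0, with 11 of 13 and 8 of 8 called lower; with library totals the PCNA row at 6 h lies below 0.

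At 1.5 h, where 30.1% of all genes tested were called higher and 33.8% lower, fewer of these genes were called. The counts higher and lower were 1 and 3 for origin licensing, 1 and 2 for helicase partners, 0 and 0 for the clamp loader and 3 and 1 for the polymerase group. They were 0 and 4 for nucleotide supply, 0 and 4 for E2F, RBR1 and cyclin control, 2 and 10 for histones and 1 and 5 for mitosis. With library totals 0 genes of these lists were higher at 1.5 h except 1 histone gene. Of all 19790 genes tested 3073 were higher and 12387 lower on that scaling. The lower counts were then 6 for origin licensing, 8 for helicase partners, 3 for the clamp loader, 9 for the polymerase group, 5 for nucleotide supply, 11 for E2F, RBR1 and cyclin control, 11 for histones and 7 for mitosis.

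Over the 12 libraries, which share the deposited scaling, the gene most like the mean of the 6 MCM genes was ETG1 with a Pearson r of 0.983 among 14768 genes with a mean of at least 5 FPKM. It was followed by GR-RBP3 (0.957), AT3G19790 (0.950), AT3G54750 (0.948) and ASN2 (0.947). Among the 6 MCM genes, r with the MCM mean ran from 0.767 (MCM7) to 0.981 (MCM2), with each gene part of that mean. For PCNA1 and PCNA2 r with the MCM mean was -0.362 and -0.356. Most like the PCNA mean were AT5G47455 (0.981), emb1027 (0.977), AT3G18940 (0.975), AT1G24510 (0.975) and AT4G01860 (0.974). These r values describe 12 libraries of 6 groups on the deposited scale and carry no test, and they were not computed under the other scalings.

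Levels of root cell type markers also differed between groups, and their part in the results was not tested. Their counts stand against the same shares of all genes as those of the lists above. The summed level of 5 root meristem markers was 33.7 to 48.1 FPKM in mock and 24.5 to 29.6 with As(V). At 1.5 h 1 of the 5 was higher and 2 lower, and at both 6 and 24 h 0 were higher and 2 lower. SHR, a stem cell niche and ground tissue regulator, was lower at 1.5, 6 and 24 h (-1.66 ± 0.17, -1.50 ± 0.17 and -0.33 ± 0.11, the last not called with either other scaling). SCR, its partner, was at -1.88 ± 0.15, -0.25 ± 0.12 (not called) and -0.45 ± 0.10. WOX5, a marker of the quiescent centre, was higher at 1.5 h (0.54 ± 0.21), though at -0.04 with library totals, and was at 0.73 ± 0.31 and 0.60 ± 0.36 at 6 and 24 h, not called. PLT2, a regulator of the meristem, was lower at 6 h (-0.71 ± 0.25), and PLT1, its relative, was not called at any of the times. Of 6 genes listed as markers of differentiated root cells, PIN2 among them, the summed level was 443 to 615 FPKM in mock. With As(V) it was 242 to 348 FPKM. Lower at 1.5, 6 and 24 h were 4, 4 and 5 of the 6, and with library totals 6, 5 and 4. PIN2, an auxin carrier, was higher at the same times (0.30 ± 0.07, 1.84 ± 0.07 and 0.33 ± 0.07), though at -0.32 with library totals at 1.5 h, and at 6 h of As(V) it made up 187 FPKM of a mean sum of 331. Leaf markers LHCB1.1 and LHCB2.1 were at or below 1.102 FPKM in every library, while RBCS1A ranged from 14.0 to 126. The summed level of 6 leaf markers was 97.3 to 176 FPKM in mock. With As(V) it was 66.4 and 208 in the 1.5 h libraries, 80.7 and 82.9 in the 6 h libraries, and 48.1 and 39.9 in the 24 h libraries. PSBO1 and PSAD1, photosystem subunits, were lower at each time (-1.83 ± 0.26 and -1.28 ± 0.26 at 24 h), with PSAD1 at 6 h not called by median of ratios.

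Genes on the opposite strand overlap 2 of the 8. PCNA2 shares 279 of its 1183 exon bases with ENOC (AT2G29560), which was at 20.2 to 31.5 FPKM and fell by 0.49 at 6 h, where PCNA2 was higher as deposited. MCM7 shares 21 of its 2649 exon bases with STP7 (AT4G02050), at 16.4 to 79.4 FPKM. The library kit marks strand, and whether counting used it is not given in the sources used here. The coding sequences of PCNA1 and PCNA2 are identical at 678 of 795 aligned positions (85.3%), with no identical run longer than 41 bases, shorter than the 50-base reads.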

How the data were processed

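The authors deposited FPKM values of 33557 genes in 12 libraries, and the series table and the files per library hold the same values. Per the submitters' processing notes edgeR, HTSeq 0.6.0, STAR 2.5.4 and Trim Galore were used with TAIR10. The scaling formula and annotation version are not given in the sources used here. Reads were estimated from steps of the FPKM values, recovered for 15788 of 24376 genes within 0.05 reads, and otherwise from exon length.

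Genes with at least 1 FPKM, and no fewer than 10 reads as estimated, in 2 or more libraries were tested with limma 3.58.1 (R 4.3.3) on log2(FPKM + 1), with 1 coefficient per group, voom weights and robust variances, with 6 residual degrees of freedom and prior ones of 4.83 at the median. The test was checked on simulated data. Names, exons and upstream bases came from RefSeq TAIR10.1, with Python 3.11.15. The members and lists were chosen with earlier results of these data known. Named list genes were up to 3 called genes of the largest change at 6 h with a mean of at least 5 FPKM, or any of a list of 6 or fewer.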

Additional observations from a re-analysis of the deposited data

Results flagged for a closer look

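The effect of As(V) differed between times in 7 of the 8 genes by limma's test of the difference itself, on the deposited scale with adjustment over 19790 genes. The share of all genes called between at least 1 pair of times was not computed. For 6 minus 1.5 h 26.3% of all genes were called higher and 17.7% lower. For 24 minus 6 h the shares were 26.8% and 35.4%, and for 24 minus 1.5 h 27.9% and 32.3%. Differences are on the log2(FPKM + 1) scale.

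The effect at 6 h minus that at 1.5 h was -1.16 in MCM2 (adjusted p = 0.00017), -1.05 in MCM3 (0.0089), -0.75 in MCM4 (0.012), -1.299 in MCM5 (0.0011), -1.41 in MCM6 (0.0060) and -0.69 in MCM7 (0.0092). From 6 to 24 h it rose by 1.66 in MCM2 (adjusted p = 2.8e-06), by 1.55 in MCM3 (0.00019), by 1.03 in MCM4 (0.00060), by 1.86 in MCM5 (2.3e-05), by 2.097 in MCM6 (0.00012) and by 0.57 in MCM7 (0.011). Over the same interval it fell by 0.61 in PCNA1 (adjusted p = 0.015), whereas with library totals that difference was 0.68. From 1.5 to 24 h it rose by 0.50 in MCM2 (adjusted p = 0.0080), by 0.56 in MCM5 (0.024) and by 0.68 in MCM6 (0.033). MCM6 had the widest swing and MCM7 the narrowest of the 6 helicase genes at 6 h against both other times.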

How the results depend on the processing

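Library totals changed most. With them 0 genes were higher and 4 lower at 1.5 h, 0 higher at 6 h, and the signs of MCM2, MCM4, MCM5 and MCM7 at 1.5 h (-0.45, -0.29, -0.56 and -0.22) and of PCNA1 and PCNA2 at 6 h (-0.17 and -0.48) turned. Within As(V), PCNA2 turned to -0.013 from 1.5 to 6 h, PCNA1 and PCNA2 to 0.43 and 0.56 from 6 to 24 h, and to 0.70 and 0.54 from 1.5 to 24 h. In these comparisons 0 genes were higher and 6 lower, 0 were lower, and 8 were higher, in the same order. Of all 19790 genes 2938 were higher and 8311 lower, 2892 were lower, and 11632 were higher. Differences between effects turned to -0.23 and -0.54 for PCNA1 and PCNA2 (6 minus 1.5 h), to 0.68 and 1.01 for PCNA1 and PCNA2 (24 minus 6 h, 0 lower) and to 0.56, 0.45 and 0.47 for MCM7, PCNA1 and PCNA2 (24 minus 1.5 h, 7 higher). By median of ratios MCM6 at 1.5 h turned from -0.05 to 0.01. With library totals 19.9%, 19.2% and 51.5% of all called genes were higher at 1.5, 6 and 24 h, against 47.1%, 48.8% and 44.7% as deposited. On that scaling 2648 of 19790 genes had a lower effect (24 minus 6 h) and 10399 a higher one (24 minus 1.5 h).

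In mock, 4 genes rose from 1.5 to 6 h without weights and 3 without a filter. From 6 to 24 h, 0 fell without weights or filter and 2 with library totals, where 2542 of 19790 genes did. From 1.5 to 24 h, 0 rose without weights, without a filter or in a fit of the groups compared alone. That fit called 1 effect higher at 6 h than at 1.5 h, and without a filter 1 effect was higher at 24 h than at 1.5 h.

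Leaving out 1 library gave 2 to 3 higher at 1.5 h, 4 to 6 lower and 2 higher at 6 h, and 4 to 7 higher at 24 h. It gave 1 to 3 higher from 1.5 to 6 h of mock, 0 to 6 lower from 6 to 24 h and 0 to 6 higher from 1.5 to 24 h. For As(V) it gave 1 to 2 higher and 2 lower from 1.5 to 6 h, and 5 higher and 2 lower from 6 to 24 h. Effects gave 6 lower (6 minus 1.5 h), 5 to 6 higher and 0 to 1 lower (24 minus 6 h), and 1 to 5 higher and 0 to 1 lower (24 minus 1.5 h). A group left with 1 library was assumed to vary like the others.

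Replicate numbers did not pair the libraries (correlations of deviations -0.067 to 0.093). The replicate block called 2 lower from 6 to 24 h of mock and 2 higher from 1.5 to 24 h, and MCM7 at 24 h (0.24, adjusted p = 0.021). A pseudocount of 0.1, a minimum of 5 FPKM and median of ratios moved no count of calls beyond 1.5 times. The cause of these changes was not tested. With 28 to 753 reads per gene and 2 libraries per group, small changes may be missed.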
